A study of Homo sapiens with 4 samples.

Results

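The kinesin, centromere and spindle genes were taken by symbol: every gene named KIF with a number, every gene named CENP with a letter from A to X, and 21 further genes of the kinetochore, the spindle checkpoint and mitotic control. The rule found 79 of the 57879 genes in the files, and 70 of the 79 had enough fragments to be tested. By textbook role they were 14 mitotic kinesins, 25 transport and other kinesins, 15 CENP genes of the inner centromere, 4 other CENP genes, the 4 genes of the Ndc80 complex, 6 spindle checkpoint genes, 7 mitotic kinases, cyclins and survivin, and 4 spindle and cytokinesis proteins. The 54 genes outside the transport class are called cell-division members here.

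RNAseq was done on T24, a human bladder carcinoma cell line grown in RPMI with 10% serum. EV cells, with the genotype control in the labels, carried the empty vector. TET1-CD cells carried a FLAG-tagged catalytic domain of TET1, the enzyme that oxidizes 5-methylcytosine, and each group had 2 libraries. By the study's methods, cells were infected with virus and selected with puromycin; no clones are described, and whether the libraries came from separate cultures is not stated, so p-values measure only the spread between these libraries.

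Kinesins are motors that walk along microtubules or take their ends apart. Some carry vesicles and organelles between divisions, and others build the spindle, move chromosomes and close the midzone at cytokinesis. CENP proteins mark the centromere and build on it the inner kinetochore, to which the Ndc80 complex adds the grip on microtubules. The spindle checkpoint holds anaphase back until every kinetochore is attached, and CDK1 with cyclin B, PLK1 and the Aurora kinases drive entry into and passage through mitosis. Most of these mitotic genes are transcribed in G2 and M, so in a culture their level also follows the share of dividing cells. In bulk RNA, more cells in G2 and M and more transcript per cell cannot be told apart.

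The estimated fragments summed to between 17442143 and 20295266 per library. TET1 was checked first: it had 111 and 83 fragments in EV and 2939 and 3310 in TET1-CD, a log2 fold change of 5.02 ± 0.082 (SE) and adjusted p = 4.9e-10, in the direction of the labels. Fragments of the vector's catalytic domain and of the cell's own TET1 are not separated in the files. Of 16 urothelial and epithelial markers, 8 were tested. KRT7, KRT8 and KRT18 had from 10759 to 22638 fragments in a library, whereas KRT5, KRT13 and KRT20 were at 0 and the uroplakins UPK1A, UPK1B, UPK2 and UPK3A at 0 to 6. Of the 8, 5 were called higher (GATA3, FOXA1, KRT7, KRT18 and KRT19, log2 fold changes of 0.18 to 1.25), and none was called lower. In 1 marker, which was not called, both TET1-CD libraries lay below EV, at a log2 fold change of -0.08. The summed level of the 8 was 2391 and 2370 CPM (fragments of a gene per 1000000 fragments of the library) in EV and 2702 and 2669 in TET1-CD. Of the 8 mesenchymal markers, 6 were tested; VIM and FN1 fell, by 0.39 and 0.27 on the log2 scale, and COL1A1 rose by 1.89, with summed levels of 7153 and 7197 in EV and 5682 and 5887 in TET1-CD. Of 7 blood and endothelial markers, 2 were tested and none was called, and PTPRC, CD3E and HBB were at 0 to 2 fragments. The part of these markers in the results below was not tested.

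Levels are given below as CPM after TMM scaling, which suits one gene across libraries, and fold changes are log2 values for TET1-CD over EV from edgeR's quasi-likelihood test. A gene was called where the p-value adjusted over all 14573 genes tested was under 0.05. Of the 70 tested members, 10 were called higher in TET1-CD cells, which is 14.3%, beside 10.0% of all genes tested. Only 3 members were called lower, 4.29% beside 9.61% of all genes. At a fold change of 2 as well, 1 member was called, KIF21B, beside 3.77% of all genes. The median log2 fold change of the 70 members was 0.05, and that of all genes 0.001. That of the members was 0.088 without EV replicate 1, 0.0 without EV replicate 2, 0.06 without TET1-CD replicate 1 and 0.028 without TET1-CD replicate 2. The 10 higher members were KIF21B, KIF5C, CENPO, CENPN, PLK1, KIF1C, AURKB, BUB1B, KIF23 and KIF3B, and the 3 lower ones NUSAP1, KIF3C and KIF13A. The share called higher stood above that of all genes tested and the share called lower below it, each by few genes. Both counts changed when a library was left out, as given next.

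The calls depended on single libraries. Without EV replicate 1, 17 members were called higher and 1 lower, 25.4% of those tested beside 25.1% of all genes in that fit. Without EV replicate 2, the counts were 9 and 8, 23.6% beside 24.9%. Without TET1-CD replicate 1, 2 were called higher and 0 lower, 2.78% beside 5.48%, and without TET1-CD replicate 2, 1 and 1, 2.86% beside 6.77%. The members' share of calls, with higher and lower pooled, thus rose and fell with that of all genes. The balance of higher to lower calls among the members also differed between these fits. That balance over all genes is not given for them, so the members' balance cannot be placed beside it. In these fits the lone library of a group was assumed to vary like those of the other group. KIF21B was called in each of the 4 fits. NUSAP1 and KIF5C were each called in 3 of the 4, with adjusted p = 0.0784 for NUSAP1 without TET1-CD replicate 1 and 0.0529 for KIF5C without TET1-CD replicate 2. With all 4 libraries, DESeq2 called 6 members and did not call AURKB, BUB1B, CENPN, KIF13A, KIF23, KIF3B and KIF3C. That fit kept every gene with any count, 25160 genes and 76 members, so the genes it added were almost all outside the members. Its shares, 7.89% of members and 5.85% of all genes, are therefore not like those of the main fit, and no excess is read from them.

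**Figure D1:**
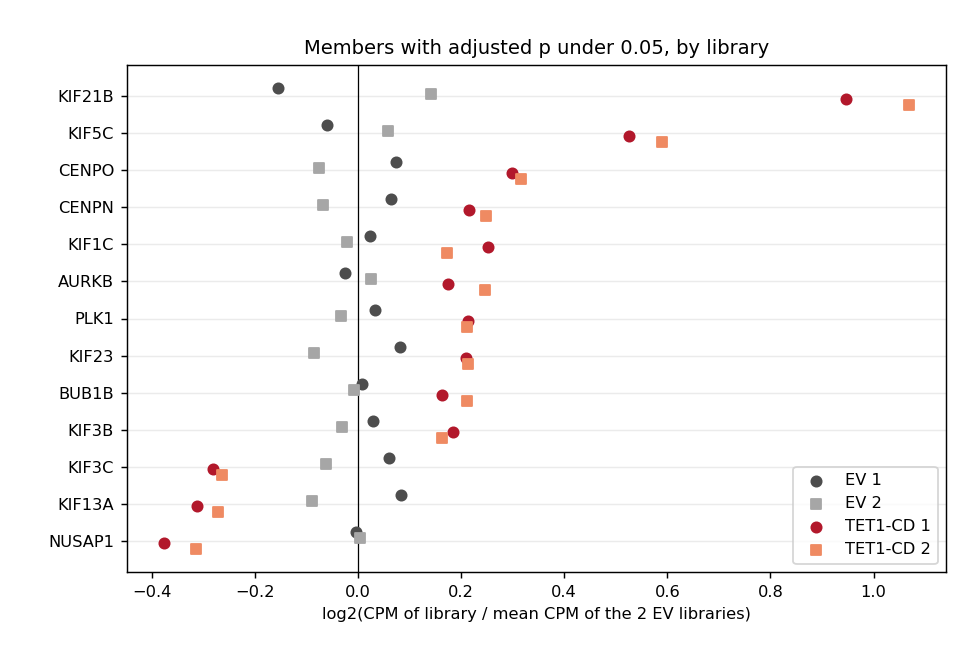
Level of the 13 called members in each library, as log2 of the library's CPM over the mean CPM of the 2 EV libraries (horizontal axis), one gene per line; circles are replicate 1 and squares replicate 2, grey for EV and red or orange for TET1-CD. For every gene shown, the TET1-CD libraries lie on one side of both EV libraries; KIF21B is farthest to the right and NUSAP1 farthest to the left.

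The EV libraries differed from each other in these genes more than they did in the genome at large. EV replicate 1 was above EV replicate 2 in 54 of the 70 tested members, 77.1%, against 49.2% of all genes tested. All 12 tested mitotic kinesins and all 6 checkpoint genes went that way. The median log2 ratio of EV replicate 1 to EV replicate 2 was 0.11 over the members, 0.17 over the mitotic kinesins and 0.28 over the 4 other CENP genes, whereas it was -0.002 over all genes. TET1-CD replicate 1 was above replicate 2 in 24 of the 70, 34.3% against 50.4% of all genes tested. The median log2 ratio was -0.03 over the members and 0.001 over all genes. The TET1-CD libraries thus also leaned to one side in these genes, by a smaller median. In 37 of the 70 members the gap between the EV libraries was larger than the gap between the group means, 52.9% against 41.5% of all genes. The summed level of the 70 members was 7384 and 6789 CPM in the EV libraries and 7299 and 7435 CPM in the TET1-CD libraries. By this sum, EV replicate 1 stood with the TET1-CD libraries, and EV replicate 2 stood below the other 3. The classes differed in the median of a gene's log2 CPM minus its mean over the 4 libraries. EV replicate 2 was lowest except in the Ndc80 complex (-0.009, TET1-CD -0.037 and -0.073) and the inner centromere genes (-0.018 in both EV libraries). For the mitotic kinases, cyclins and survivin, EV replicate 1 also lay below TET1-CD (-0.045 against 0.008 and 0.079).

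**Figure D2:**
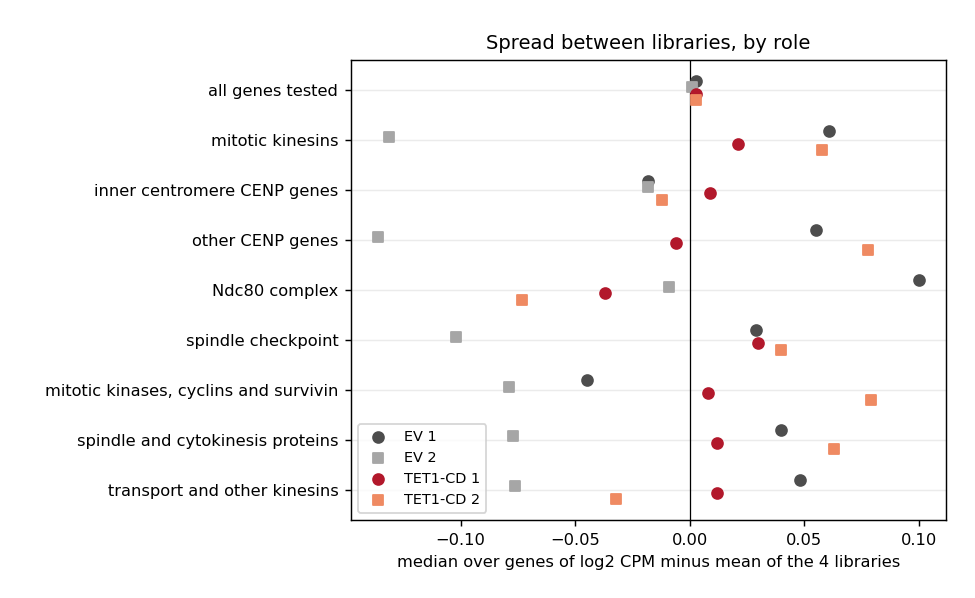
Median, over the genes of each role, of a gene's log2 CPM in a library minus its mean over the 4 libraries (horizontal axis), for all genes tested and for the 8 roles; circles are replicate 1 and squares replicate 2, grey for EV and red or orange for TET1-CD. Over all genes the 4 libraries lie within 0.01 of 0, while EV replicate 2 lies at -0.131 for the mitotic kinesins and EV replicate 1 at 0.061.

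Libraries of the groups did not overlap in 26 members that were higher in TET1-CD, 37.1% beside 30.8% of all genes tested, and in 13 that were lower, 18.6% beside 30.2%. At an unadjusted p under 0.05 there were 24 members, 34.3% beside 33.2% of all genes. The members closest to the threshold on the other side were PRC1 at a log2 fold change of 0.17 (adjusted p = 0.0515), CENPC at -0.33 (0.0619), KIF3A at -0.23 (0.0658) and KIF2C at 0.18 (0.0716).

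**Figure D3:**
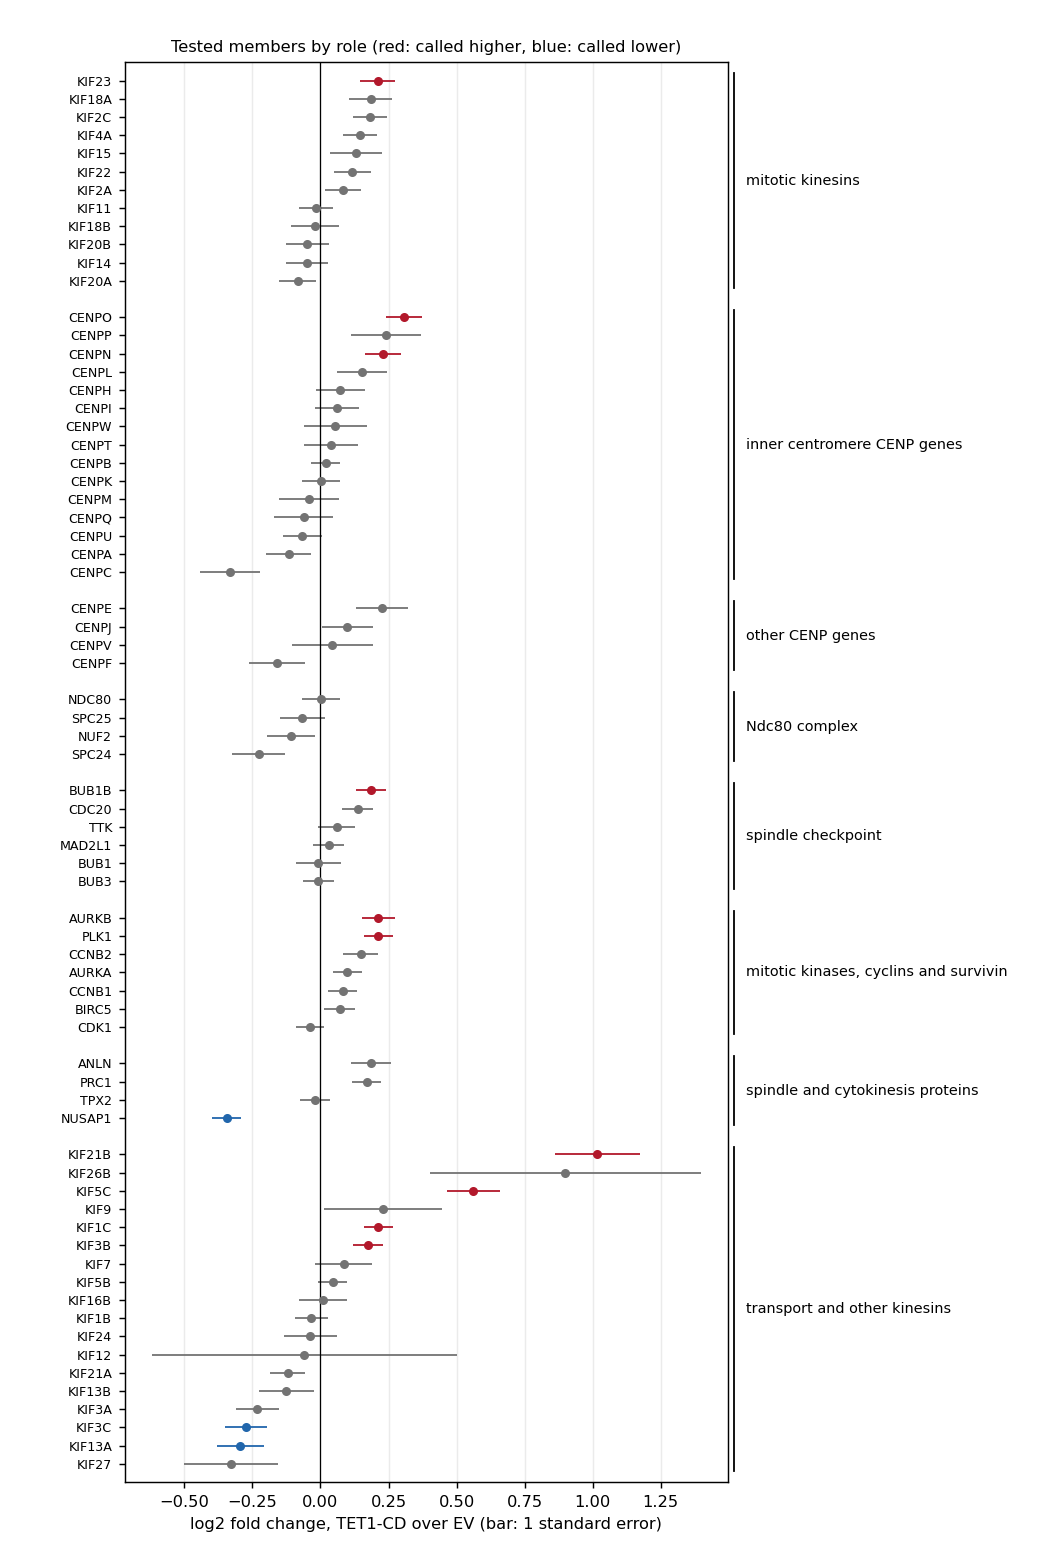
Log2 fold change of each of the 70 tested members, TET1-CD over EV (horizontal axis; bars are 1 standard error), grouped by role; red marks genes called higher, blue genes called lower and grey genes not called. Of the cell-division members 33 of 52 lie above 0, and the 18 transport and other kinesins are split 9 to 9.

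Levels between genes were compared as FPKM, which is per transcript length. The spindle and cytokinesis proteins had the highest median, 117 FPKM, followed by the mitotic kinases, cyclins and survivin at 74.6 FPKM. The checkpoint genes and the mitotic kinesins followed, at 40.7 and 37.5 FPKM, and the median of the transport kinesins was 5.97 FPKM. All genes tested had a median of 9.64 FPKM. The most abundant members were CCNB1 at 163 FPKM, TPX2 at 131, PRC1 at 124, AURKA at 115 and CDC20 and ANLN at 109 each. The medians of all 7 cell-division classes were above that of all genes tested, and the transport kinesins covered a range from 0.09 FPKM for KIF26B to 64.6 FPKM for KIF5B.

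**Figure D4:**
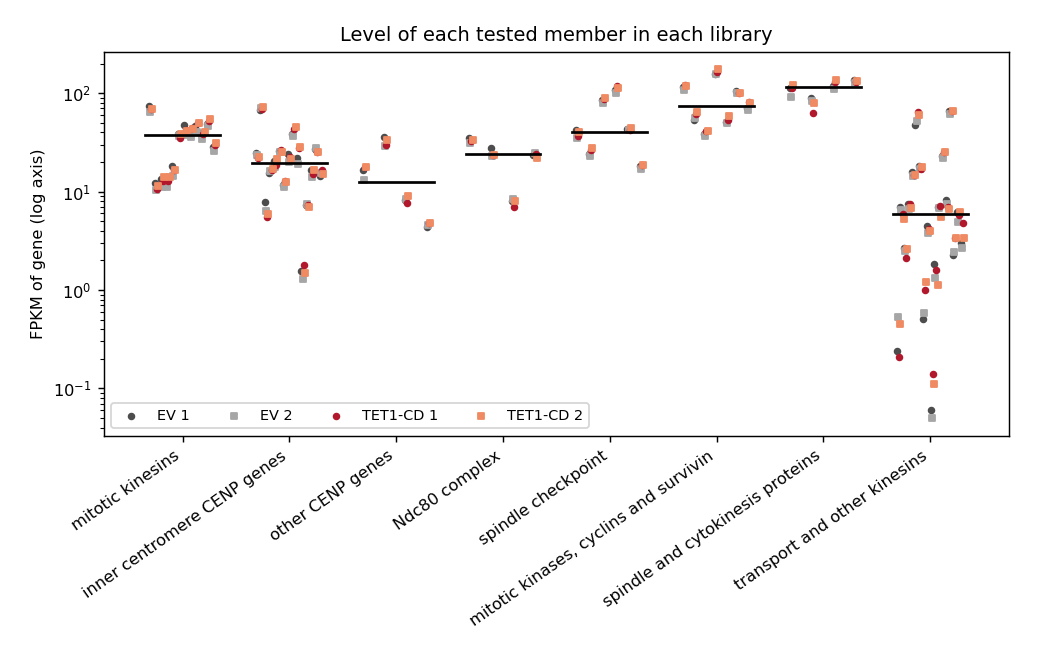
FPKM of each tested member in each library (vertical log axis), by role; circles are replicate 1 and squares replicate 2, grey for EV and red or orange for TET1-CD, and black lines are the medians over the genes of a role. The median falls from 117 FPKM for the spindle and cytokinesis proteins to 5.97 FPKM for the transport and other kinesins, and the libraries of a gene lie close together beside the distance between genes.

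Genes that peak in G2 and M often carry near their start site a cell cycle genes homology region, CHR, through which the MuvB complex with B-MYB and FOXM1 acts, and CCAAT boxes, which bind NF-Y. RefSeq promoter windows (250 bases before to 50 after a transcript's start, GRCh38.p14) matched 64 of the 79 members. The letters searched were TTTGAA for the CHR and CCAAT for the box, on either strand, and a match was counted whether or not it touched another. Of all 35116 windows, 15.2% held the CHR letters, beside 27 of the 50 windows of cell-division members, 54%, and 1 of the 27 windows of transport and other kinesins, 3.7%, that of KIF5B. CCAAT stood in 34.6% of all windows, 66% of those of cell-division members and 33.3% of those of the transport class. Both motifs together stood in 5.9%, 42% and 3.7%. Some genes have more than 1 window, and windows of 1 gene can share sequence. Within the cell-division members, the CHR letters were in 50% of the windows of genes that were not called. Of the 11 windows of members called higher in any class, 5 held them, all 5 of cell-division members. The 11 include windows of the transport kinesins KIF5C, KIF1C and KIF3B, which held none, so they are not a set like that of the 50%. Of the 3 windows of members called lower, 1 held them, that of NUSAP1, and the others were of the transport kinesins KIF3C and KIF13A.

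The start-site regions of 7 called members are shown because they differ in these motifs. Each runs from 120 bases before to 30 after the RefSeq start, 5′ to 3′ on the gene's strand, with CHR and CCAAT letters on either strand in capitals. PLK1, KIF23 and CENPN were called higher and hold both motifs, BUB1B was called higher and holds the CHR letters, and NUSAP1 was called lower and holds both; KIF3B, called higher, holds a CCAAT and KIF1C, called higher, neither.
PLK1 (chr16:23678769-23678918, plus strand): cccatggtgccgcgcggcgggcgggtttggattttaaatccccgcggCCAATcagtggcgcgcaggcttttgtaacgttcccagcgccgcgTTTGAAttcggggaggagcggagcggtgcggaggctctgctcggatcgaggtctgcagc
KIF23 (chr15:69414229-69414378, plus strand): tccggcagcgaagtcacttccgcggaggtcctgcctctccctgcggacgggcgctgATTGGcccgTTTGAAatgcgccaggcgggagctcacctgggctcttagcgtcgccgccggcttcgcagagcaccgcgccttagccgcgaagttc
CENPN (chr16:81007094-81007243, plus strand): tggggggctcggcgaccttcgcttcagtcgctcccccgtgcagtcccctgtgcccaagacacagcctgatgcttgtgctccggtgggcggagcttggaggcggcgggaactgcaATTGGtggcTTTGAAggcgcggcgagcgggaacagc
BUB1B (chr15:40160949-40161098, plus strand): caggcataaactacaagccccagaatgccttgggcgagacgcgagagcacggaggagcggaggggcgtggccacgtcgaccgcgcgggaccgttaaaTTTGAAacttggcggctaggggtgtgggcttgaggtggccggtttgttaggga
NUSAP1 (chr15:41332761-41332910, plus strand): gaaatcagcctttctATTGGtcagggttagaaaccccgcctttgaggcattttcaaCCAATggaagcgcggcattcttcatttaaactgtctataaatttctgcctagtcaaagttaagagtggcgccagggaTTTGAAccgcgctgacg
KIF3B (chr20:32277531-32277680, plus strand): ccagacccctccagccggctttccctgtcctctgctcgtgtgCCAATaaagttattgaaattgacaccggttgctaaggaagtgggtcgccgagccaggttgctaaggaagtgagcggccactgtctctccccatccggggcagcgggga
KIF1C (chr17:4997830-4997979, plus strand): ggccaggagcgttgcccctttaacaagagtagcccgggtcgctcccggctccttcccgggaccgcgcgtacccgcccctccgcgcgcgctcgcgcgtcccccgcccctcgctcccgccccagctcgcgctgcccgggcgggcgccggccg
The first CHR base lay 29 bases before the start in PLK1, 55 before in KIF23, 23 before in BUB1B, and 4 and 14 bases after the start in CENPN and NUSAP1. A match of letters is a description of the window and not a measured site.

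**Figure D5:**
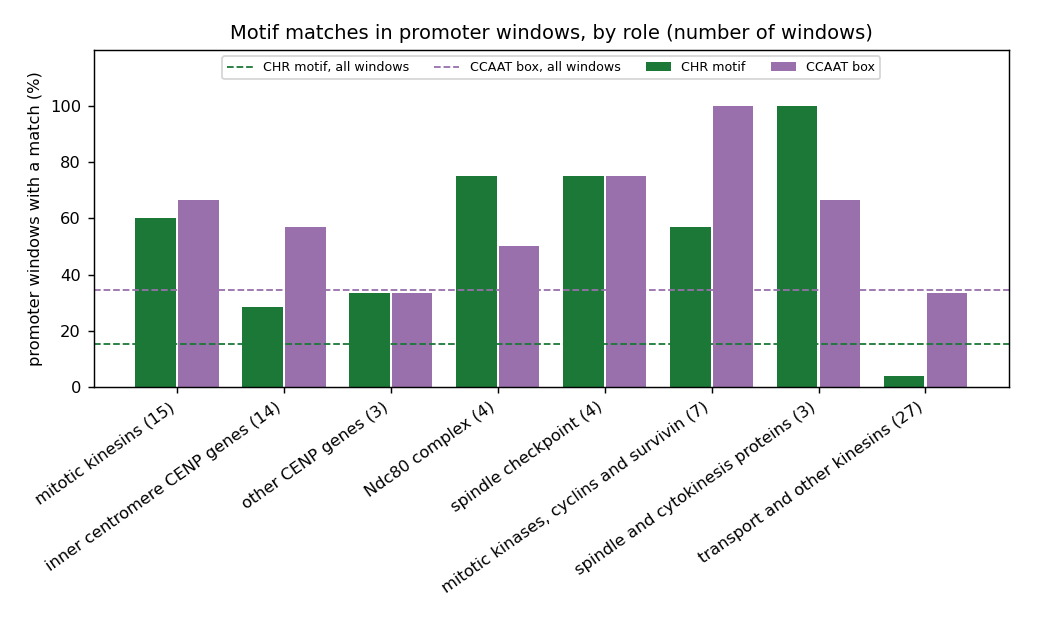
Share of RefSeq promoter windows with a match to the CHR letters (green) or to CCAAT (purple), in percent, by role, with the number of windows in parentheses; dashed lines are the shares over all 35116 windows, 15.2% and 34.6%. The CHR share is above its line in every class but the transport and other kinesins, where it is 3.7%.

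Among the mitotic kinesins, 1 of the 12 tested was called higher and 0 lower, with a median log2 fold change of 0.10. Beside this count and those of each class below stand the shares of all genes tested, 10.0% called higher and 9.61% called lower. KIF23, the motor of the centralspindlin complex that bundles midzone microtubules (chromosome 15, 69706585 to 69740764 of GRCh37), was at 135 and 119.9 CPM in EV and 147 and 148 CPM in TET1-CD. The TET1-CD libraries were alike and above both EV libraries, which spread more. The means were 127 ± 10.5 CPM (SD, n = 2) and 147 ± 0.23 CPM (SD, n = 2), a log2 fold change of 0.21 ± 0.064 (SE), adjusted p = 0.0458. Without EV replicate 2 its log2 fold change was 0.13 (adjusted p = 0.072), and the adjusted p was 0.274 and 0.269 without TET1-CD replicate 1 or 2. DESeq2 (0.106) and the FPKM scale (0.132) also ended the call. Of the exonic bases of KIF23 in GENCODE release 44, 3.51% also lie in an antisense gene, KIF23-AS1; the counting of strand is not given in the sources used here, so reads there cannot be assigned to one gene. Within KIF23, transcript ENST00000352331 took an estimated 43.1% and 45.1% of the gene's fragments in EV and 53.1% and 52.7% in TET1-CD. Transcript ENST00000260363, by contrast, had 45.0 and 34.4 CPM in EV and 36.96 and 39.3 CPM in TET1-CD, which overlap. These are divisions of shared reads and were not tested.

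KIF11, the Eg5 motor that pushes the spindle poles apart, was the most abundant mitotic kinesin, at 358 and 318 CPM in EV and 334 and 335 CPM in TET1-CD. The TET1-CD values fell between the EV values, with a log2 fold change of -0.02 (adjusted p = 0.891). KIF2C (MCAK), which takes microtubule ends apart at centromeres, was at 138 and 126 CPM in EV and 145 and 154.5 CPM in TET1-CD. Its groups did not overlap, but it missed the threshold with all 4 libraries (adjusted p = 0.0716). The log2 fold change of KIF2C was 0.24 without EV replicate 1 and 0.12 without EV replicate 2. It was 0.226 without TET1-CD replicate 1 and 0.135 without TET1-CD replicate 2. KIF4A, KIF18A and KIF22, the chromokinesins and the motor that damps chromosome movements, also had TET1-CD above EV, at log2 fold changes of 0.15, 0.18 and 0.12, with adjusted p of 0.125, 0.138 and 0.272. The remaining 6 overlapped between groups, with log2 fold changes from -0.08 for KIF20A to 0.13 for KIF15. None of the 12 had both TET1-CD libraries below EV, beside 30.2% of all genes tested. KIF2B was at 0 fragments in every library, and KIF4B, an intronless near-copy of KIF4A whose reads cannot be separated with certainty, was at 1 to 8.

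Of the 15 inner centromere genes, 2 were called higher and 0 lower, and the median log2 fold change was 0.04. CENPO, of the CENP-O group in the constitutive centromere network (chromosome 2, 25016005 to 25045245), was at 76.7 and 69.1 CPM in EV and 89.7 and 90.7 CPM in TET1-CD. No TET1-CD library of it reached down to EV. The means were 72.9 ± 5.35 and 90.2 ± 0.76 CPM (SD, n = 2 each), and the log2 fold change of 0.31 ± 0.066 (SE), adjusted p = 0.0101 was the largest rise of a cell-division member. It lost the call without TET1-CD replicate 1 (adjusted p = 0.101) or 2 (0.117). Of the exonic bases of CENPO, 31.6% also lie in genes on the other strand, mostly ADCY3. ADCY3 was at 79.6 and 76.2 CPM in EV and 76.1 and 74.9 CPM in TET1-CD, a log2 fold change of -0.05 (adjusted p = 0.64). The TET1-CD libraries of ADCY3 lay at or just under those of EV, while those of CENPO lay above, and how reads were divided between the pair was not tested.

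CENPN, which reads the CENP-A nucleosome together with CENPL (chromosome 16, 81040103 to 81066719), was at 57.6 and 52.5 CPM in EV and 63.9 and 65.4 CPM in TET1-CD. The groups did not overlap, with means of 55.0 ± 3.56 and 64.7 ± 1.05 CPM (SD, n = 2 each) and a log2 fold change of 0.23 ± 0.066 (SE), adjusted p = 0.0345. The call was lost without EV replicate 2 (log2 fold change 0.17, adjusted p = 0.0538) and without TET1-CD replicate 1 (0.221) or 2 (0.266), as well as by DESeq2 (0.197) and on the FPKM scale (0.0559). Its exonic bases are 23.1% shared with other genes, CMC2 on the other strand among them, which had a log2 fold change of 0.18 (adjusted p = 0.113). Of the 1312 shared bases, 716 lie in a long non-coding RNA gene on the same strand, whose level is not given here, and 240 in CMC2. CENPB, which binds a box in alpha satellite DNA, was the most abundant gene of the class, with means of 196.8 ± 4.64 CPM in EV and 199.4 ± 5.51 CPM in TET1-CD (SD, n = 2 each). Its groups overlapped, with a log2 fold change of 0.02.

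The other 12 inner centromere genes were not called. CENPA, the histone H3 variant that marks the centromere, was at 35.1 and 31.7 CPM in EV and 30.6 and 31.1 CPM in TET1-CD, with a log2 fold change of -0.12 (adjusted p = 0.366). CENPC, the scaffold that joins it to the kinetochore, was at 25.7 and 21.9 CPM in EV and 17.7 and 20.2 CPM in TET1-CD. Both TET1-CD libraries of CENPC lay below EV, at a log2 fold change of -0.33 (SE 0.111). CENPP and CENPL lay above EV in both libraries, at log2 fold changes of 0.24 and 0.15 (adjusted p = 0.222 and 0.289). The rest, CENPU, CENPH, CENPI, CENPQ, CENPW, CENPT, CENPM and CENPK, had log2 fold changes from -0.07 to 0.07.

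The 4 other CENP genes were not called. CENPF, a large protein of the outer corona, was at 315 CPM in EV replicate 1 and 241 CPM in EV replicate 2, and at 240.0 and 258 CPM in TET1-CD. CENPE, the kinesin that carries chromosomes to the spindle equator, was at 137 and 107 CPM in EV and 142 and 144 CPM in TET1-CD. In both genes EV replicate 1 was far above EV replicate 2, and the call turned on which one was kept. CENPF had a log2 fold change of -0.16 (adjusted p = 0.314) with all libraries, -0.34 (adjusted p = 7.31e-05) without EV replicate 2 and 0.04 (0.625) without EV replicate 1. CENPE had 0.23 (adjusted p = 0.125) with all, 0.41 (5.47e-05) without EV replicate 1 and 0.06 (0.417) without EV replicate 2. CENPJ, a centriole protein, and CENPV had log2 fold changes of 0.10 and 0.04.

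None of the 4 Ndc80 complex genes was called, and the median log2 fold change was -0.09. NDC80, the microtubule-binding subunit, was at 73.7 and 65.3 CPM in EV and 68.8 and 70.6 CPM in TET1-CD, so the TET1-CD values fell between those of EV. NUF2, its partner, was at 51.9 and 43.3 CPM in EV and 44 and 44.5 CPM in TET1-CD, likewise within EV, with a log2 fold change of -0.11 (adjusted p = 0.426). Without EV replicate 2 that of NUF2 became -0.23, and without EV replicate 1 it was 0.02. SPC24 was the only one of the 4 with both TET1-CD libraries below EV, at 16.9 and 16.9 CPM against 14.6 and 14.3 CPM, a log2 fold change of -0.23 that was not called. SPC25 had -0.07.

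Of the 6 checkpoint genes, 1 was called higher and 0 lower. BUB1B, the BubR1 subunit of the mitotic checkpoint complex (chromosome 15, 40453224 to 40513337), was at 87.4 and 86.5 CPM in EV and 97.3 and 100.6 CPM in TET1-CD. The EV libraries were close together and both below TET1-CD. The means were 86.9 ± 0.676 and 98.9 ± 2.32 CPM (SD, n = 2 each), a log2 fold change of 0.19 ± 0.056 (SE), adjusted p = 0.0428. The adjusted p was 0.229 and 0.368 without TET1-CD replicate 1 or 2, and 0.0548 with the replicate number as a block. DESeq2 (0.213) and the FPKM scale (0.107) ended the call as well. CDC20, the APC/C activator that the checkpoint restrains, was at 181 and 169.5 CPM in EV and 197 and 188 CPM in TET1-CD. Its groups did not overlap, and its log2 fold change of 0.14 was not called (adjusted p = 0.124). That of CDC20 was 0.18 without EV replicate 1 and 0.09 without EV replicate 2. Without TET1-CD replicate 1 or 2 it was 0.106 and 0.169. BUB3, at 169 and 160.5 CPM in EV and 167 and 161 CPM in TET1-CD, had a log2 fold change of -0.01, and its sign flipped with scaling by library size alone. BUB1, MAD2L1 and TTK overlapped between groups, with log2 fold changes from -0.01 to 0.06.

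The mitotic kinases, cyclins and survivin had groups that did not overlap in any of the 7 genes. Of these, 6 were higher in TET1-CD, 85.7% beside 30.8% of all genes tested, and 1 was lower, 14.3% beside 30.2%. Called higher were 2, 28.6% beside 10.0% of all genes. These shares rest on 7 genes, and no test of the class was made. The gap between the EV libraries exceeded that between the groups in 1 of the 7. PLK1, the Polo-like kinase of centrosome maturation and cytokinesis (chromosome 16, 23688977 to 23701688), was at 153 and 146.5 CPM in EV and 174 and 174 CPM in TET1-CD. The TET1-CD libraries were almost equal and above EV. The means were 149.9 ± 4.79 and 174 ± 0.043 CPM (SD, n = 2 each), a log2 fold change of 0.21 ± 0.054 (SE), adjusted p = 0.0215. It was called by 10 of the 12 alternatives and lost without TET1-CD replicate 1 (adjusted p = 0.229) or 2 (0.218). PLK1 shares 12.8% of its exonic bases with genes on the other strand. Of the 611 shared bases, 553 lie in a long non-coding RNA gene whose level is not given here. Only 58 lie in ERN2, which was at 0 to 1 fragments.

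AURKB, the kinase of the chromosomal passenger complex (chromosome 17, 8108056 to 8113918), was at 61.8 and 64.0 CPM in EV and 71.0 and 74.5 CPM in TET1-CD. Both TET1-CD libraries were higher, with means of 62.9 ± 1.60 and 72.8 ± 2.51 CPM (SD, n = 2 each) and a log2 fold change of 0.21 ± 0.061 (SE), adjusted p = 0.0361. The call was lost without EV replicate 1 (0.053) and without TET1-CD replicate 1 (0.185) or 2 (0.346), as well as by DESeq2 (0.214) and on the FPKM scale (0.0625). BIRC5, survivin, which sits in the same complex, had a log2 fold change of 0.07 (adjusted p = 0.432). CCNB1, cyclin B1, was at 233 and 234 CPM in EV and 241 and 254 CPM in TET1-CD. AURKA, the spindle pole kinase, was at 221 and 211 CPM in EV and 231 and 231.5 CPM in TET1-CD. Both were higher in TET1-CD without overlap and neither was called, at log2 fold changes of 0.08 and 0.10 (adjusted p = 0.325 and 0.23). CCNB2 had 0.15 (adjusted p = 0.138). CDK1, the catalytic partner of the cyclins, was the one gene of the class below EV in both libraries, at 198 and 193 CPM against 189.9 and 191 CPM, a log2 fold change of -0.04 (adjusted p = 0.663).

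Of the 4 spindle and cytokinesis proteins, 1 was called lower and 0 higher. NUSAP1, which binds and bundles microtubules near chromatin (chromosome 15, 41624892 to 41673248), was at 173 and 174 CPM in EV and 133 and 139 CPM in TET1-CD. Both TET1-CD libraries were well below EV, whose libraries differed by less than 1 CPM. The means were 173 ± 0.568 and 136 ± 4.14 CPM (SD, n = 2 each), and the log2 fold change of -0.35 ± 0.054 (SE), adjusted p = 0.00204 was the only call among the cell-division members in this direction. It was lost without TET1-CD replicate 1 (adjusted p = 0.0784) and on the FPKM scale (0.121). NUSAP1 shares 86.8% of its exonic bases with other annotated genes, mostly a read-through gene on its own strand. Its neighbour OIP5-AS1, on the same strand, had a log2 fold change of -0.002 (adjusted p = 0.982). The main transcript, ENST00000414849, was at 71.0 and 86.1 CPM in EV and 62.6 and 61.6 CPM in TET1-CD, also below EV in both.

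TPX2, which activates AURKA and nucleates microtubules, was at 477 and 445 CPM in EV and 449 and 460.4 CPM in TET1-CD, within the EV range. PRC1, which crosslinks the antiparallel microtubules of the midzone, was at 312.5 and 300.3 CPM in EV and 337 and 352 CPM in TET1-CD. PRC1 lay above EV in both libraries, and was called by 6 of the 12 alternatives. ANLN, the actin-binding anillin of the cleavage furrow, was at 454 and 387 CPM in EV and 469 and 488 CPM in TET1-CD, with a log2 fold change of 0.19 (adjusted p = 0.107).

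The transport and other kinesins held 6 of the 13 calls, 4 higher and 2 lower of 18 tested, with a median log2 fold change of -0.01. KIF21B, a motor that also paces microtubule growth, best known from neurons and lymphocytes (chromosome 1, 200938520 to 200992828), had 80 and 84 fragments in EV and 149 and 181 in TET1-CD. That is 3.95 and 4.85 CPM against 8.48 and 9.22 CPM, so both TET1-CD libraries were well above EV at a low level. The means were 4.40 ± 0.636 and 8.85 ± 0.523 CPM (SD, n = 2 each), and the log2 fold change was 1.02 ± 0.156 (SE), adjusted p = 0.00189, 2.02-fold. It was called by 11 of the 12 alternatives; on the FPKM scale, where its mean level is 0.825, the adjusted p was 0.0525. KIF5C, a heavy chain of kinesin-1 typical of neurons (chromosome 2, 149632819 to 149883273), was at 14.6 and 15.8 CPM in EV and 21.9 and 22.9 CPM in TET1-CD. It rose without overlap, from 15.2 ± 0.886 to 22.4 ± 0.717 CPM (SD, n = 2 each), a log2 fold change of 0.56 ± 0.097 (SE), adjusted p = 0.00343. It lost the call without TET1-CD replicate 2 (adjusted p = 0.0529) and on the FPKM scale (0.0751).

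KIF5C has close relatives among the members. KIF5B, the heavy chain found in most cells, was at 384 and 363 CPM in EV and 389 and 382.5 CPM in TET1-CD, with overlap and a log2 fold change of 0.05 (adjusted p = 0.604). KIF5A was not tested, at 5 to 11 fragments. The difference between KIF5B and KIF5C in response was itself not tested. KIF21A, the relative of KIF21B, had a log2 fold change of -0.12 (adjusted p = 0.227), both TET1-CD libraries lying below EV.

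KIF1C, a kinesin-3 that carries vesicles and integrins (chromosome 17, 4901243 to 4931696), was at 298 and 289 CPM in EV and 349 and 330.4 CPM in TET1-CD. Both TET1-CD libraries were higher, with means of 293 ± 6.41 and 339.8 ± 13.2 CPM (SD, n = 2 each) and a log2 fold change of 0.21 ± 0.054 (SE), adjusted p = 0.0223. The adjusted p was 0.343 and 0.139 without TET1-CD replicate 1 or 2. KIF1B, of the same family, had a log2 fold change of -0.03, and KIF1A was at 0 fragments in every library. KIF13A, a further kinesin-3, which carries endosomal cargo (chromosome 6, 17759414 to 17987854), went down instead, from 37.9 and 33.6 CPM to 28.8 and 29.6 CPM. Its log2 fold change was -0.29 ± 0.085 (SE), adjusted p = 0.0376, and the call was lost without EV replicate 1 (0.0893) and without TET1-CD replicate 1 (0.248) or 2 (0.156), by DESeq2 (0.204) and on the FPKM scale (0.201). KIF13B had -0.13 (adjusted p = 0.427).

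The kinesin-2 motors, which serve intraflagellar and vesicle transport, were called in both directions. KIF3B (chromosome 20, 30865467 to 30922814) was at 137 and 131 CPM in EV and 152.5 and 150.3 CPM in TET1-CD. It was higher in both TET1-CD libraries, with a log2 fold change of 0.17 ± 0.054 (SE), adjusted p = 0.0481, and the call was lost with a replicate block (0.0602) and without TET1-CD replicate 1 (0.361) or 2 (0.287). DESeq2 (0.167), limma-voom (0.0517) and the FPKM scale (0.139) did not call KIF3B either, so 6 of the 12 alternatives did. KIF3C (chromosome 2, 26149471 to 26205618) was at 42.2 and 38.8 CPM in EV and 33.3 and 33.7 CPM in TET1-CD. It was lower in both, with a log2 fold change of -0.27 ± 0.077 (SE), adjusted p = 0.0321, a call lost without EV replicate 1 (0.0653) and without TET1-CD replicate 1 (0.238) or 2 (0.162), by DESeq2 (0.201) and on the FPKM scale (0.291). KIF3A, the usual partner of KIF3B, was at 31.3 and 31.1 CPM in EV and 26.5 and 26.6 CPM in TET1-CD; the libraries of each group were nearly equal and those of TET1-CD lower, but it was not called.

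The other tested transport kinesins were KIF7, KIF9, KIF12, KIF16B, KIF24, KIF26B and KIF27. KIF26B had 7 and 8 fragments in EV and 12 and 16 in TET1-CD, and its log2 fold change of 0.90 (SE 0.497) was not called. KIF12 had 8 to 19 fragments in a library, with the spread inside both groups wider than the difference between them. KIF27 and KIF9 had log2 fold changes of -0.33 and 0.23 (adjusted p = 0.218 and 0.507), and KIF7, KIF16B and KIF24, of which KIF7 acts in Hedgehog signalling, lay between -0.04 and 0.09. Of the untested kinesins, KIF25 was at 0 in every library, KIF26A and KIF19 at 0 or 1, KIF6 at 1 to 3 and KIF17 at 8 to 16 fragments. A count of 0 allows up to 3 fragments in a library, counting error only.

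Genes that work with the members outside the rule were followed by 11 lists. Of all genes tested, 10.0% were called higher and 9.61% lower, and the counts of each list below are to be read beside these shares. Over the 11 lists the share called higher ran from 0.0% to 18.2%, and the share called lower from 0.0% to 9.52%. No list was tested as a set. Of the 25 other kinetochore genes, 4 were called higher and 0 lower. SKA1, of the complex that tracks microtubule ends, was at 45.1 and 44.3 CPM in EV and 57.2 and 52.8 CPM in TET1-CD, a log2 fold change of 0.30 (adjusted p = 0.0136). SKA3, of the same complex, was at 66.9 and 66.1 CPM against 75.9 and 77.3 CPM, with 0.20 (0.0341). Both lay above EV in both libraries. Of 20 genes of the APC/C and anaphase entry, 2 were called higher and 0 lower. UBE2S, the ubiquitin-conjugating enzyme that extends chains for the APC/C, was at 154 and 149 CPM in EV and 192 and 176 CPM in TET1-CD, a log2 fold change of 0.28 (adjusted p = 0.00951). CDC16, an APC/C subunit, was at 66.6 and 73.0 CPM against 80.9 and 80.4 CPM, with 0.21 (0.045). Both were higher without overlap. UBE2S lost its call without TET1-CD replicate 1 (adjusted p = 0.209), and the other 3 genes without TET1-CD replicate 1 (SKA1 0.228, SKA3 0.237, CDC16 0.288) or 2 (0.0524, 0.29 and 0.257). DESeq2 (0.0823, 0.216 and 0.208) and the FPKM scale (0.0636, 0.0655 and 0.0752) did not call these 3 either, and CDC16 was also lost without EV replicate 1 (0.0983).

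Of the 18 cohesin and condensin genes, 2 were called higher and 1 lower, and EV replicate 1 was above EV replicate 2 in 18 of 18. NCAPH2, a condensin II subunit, was at 44.7 and 41.3 CPM in EV and 55.7 and 59.0 CPM in TET1-CD, a log2 fold change of 0.41 (adjusted p = 0.00315). CDCA5, sororin, which protects cohesin, was at 162 and 149.7 CPM against 179 and 179 CPM, with 0.20 (0.0357). Both rose without overlap. Of the 23 centrosome and gamma-tubulin genes, 3 were called higher and 0 lower, among them a pair of augmin subunits. HAUS2 was at 68.9 and 65.0 CPM in EV and 81.9 and 79.5 CPM in TET1-CD, with 0.27 (adjusted p = 0.0131). HAUS8 was at 14.4 and 12.8 CPM against 18.2 and 17.2 CPM, with 0.38 (0.0316). NCAPH2 lost its call without TET1-CD replicate 2 (adjusted p = 0.0512). CDCA5, HAUS2 and HAUS8 lost theirs without TET1-CD replicate 1 (0.267, 0.182 and 0.239) or 2 (0.271, 0.112 and 0.14) and by DESeq2 (0.0811, 0.061 and 0.248). HAUS8 was also lost without EV replicate 2 (0.0647), and CDCA5 and HAUS2 on the FPKM scale (0.0726 and 0.0736).

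Of 19 spindle assembly and microtubule regulators, 0 were called higher and 1 lower, STMN1. STMN1, stathmin, which destabilizes microtubules, was at 287 and 291 CPM in EV and 233 and 229.5 CPM in TET1-CD, and fell without overlap by 0.32 on the log2 scale (adjusted p = 0.0023). Of 11 tubulins, 2 were called higher and 1 lower. TUBA1A was at 131 and 147 CPM in EV and 102 and 115 CPM in TET1-CD, and fell by 0.35 (adjusted p = 0.0106). TUBB2B, at 19 and 25 fragments in EV and 41 and 63 in TET1-CD, rose by 1.24 (0.0223); tubulin genes are close copies of each other, so reads may be split between them. Of 11 C-terminal kinesins, light chains and adaptors, 2 were called higher and 1 lower. KLC3, a kinesin light chain, had 4 and 5 fragments in EV and 25 and 32 in TET1-CD, a log2 fold change of 2.64 ± 0.465 (SE), adjusted p = 0.00377. KIFC2 was at 24.04 and 22.97 CPM against 16.8 and 16.6 CPM, and fell by 0.50 (0.00473). The libraries of neither gene overlapped between groups. STMN1 and KIFC2 lost their calls without TET1-CD replicate 1 (adjusted p = 0.0679 and 0.0561) or 2 (0.0752 and 0.0608), TUBA1A without TET1-CD replicate 1 (0.178) and on the FPKM scale (0.0672), and KLC3 without TET1-CD replicate 2 (0.0601). TUBB2B was lost by DESeq2 (0.161), without EV replicate 1 (0.0882) and without TET1-CD replicate 1 (0.0641) or 2 (0.237).

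Of 19 genes of cytoplasmic dynein and dynactin, the motor that moves the other way, 3 were called higher and 0 lower. DCTN4 was at 85.9 and 82.0 CPM in EV and 104 and 98.3 CPM in TET1-CD, with a log2 fold change of 0.27 (adjusted p = 0.0125). DYNC1LI1 was at 69.9 and 71.6 CPM against 87.9 and 82.0 CPM, with 0.26 (0.0153). Both lay above EV in both libraries, as did VPS4A, the ESCRT ATPase of abscission and the 1 call among 13 cytokinesis genes, at 99.6 and 102 CPM against 125 and 117.7 CPM (0.27, adjusted p = 0.0105). Of 21 other G2/M genes, 1 was called higher and 2 lower. CKS2, a CDK subunit, was at 68.6 and 66.8 CPM in EV and 80.03 and 82.1 CPM in TET1-CD, with 0.26 (0.0127). HMGB2, a chromatin protein, was at 205 and 203 CPM against 158 and 171 CPM, and fell by 0.31 (0.00477). CKS2 was thus called higher and HMGB2 lower, and a shift of the list as a whole was not tested. DCTN4, DYNC1LI1, VPS4A and CKS2 lost their calls without TET1-CD replicate 1 (adjusted p = 0.204, 0.237, 0.2 and 0.126) or 2 (0.0821, 0.0785, 0.0708 and 0.178), and HMGB2 without TET1-CD replicate 1 (0.153). DESeq2 did not call DYNC1LI1 (0.0625) or CKS2 (0.0688), nor did the FPKM scale DCTN4 (0.0777).

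Of 17 transcription factors and complex subunits that act on mitotic genes, 2 were called higher and 0 lower, beside the 10.0% and 9.61% of all genes. MYBL2, which encodes the B-MYB of the CHR-bound complex, was at 192 and 163 CPM in EV and 218 and 207 CPM in TET1-CD, a log2 fold change of 0.26 (adjusted p = 0.0363). E2F4, of the repressive DREAM complex, was at 95.2 and 97.5 CPM against 107.8 and 110.2 CPM, with 0.18 (0.047). Both were higher in TET1-CD without overlap. MYBL2 lost its call on the FPKM scale (adjusted p = 0.0753) and without TET1-CD replicate 1 (0.296) or 2 (0.14). E2F4 was called by 5 of the 12 alternatives, and not by DESeq2 (0.217), limma-voom (0.0518), edgeR without a filter (0.0536), with a replicate block (0.0628), on the FPKM scale (0.0697) or without TET1-CD replicate 1 (0.267) or 2 (0.364). The medians of the 11 lists lay between -0.06, for the microtubule regulators, and 0.10, for the C-terminal kinesins, light chains and adaptors.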

How the data were processed

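RNA of T24 cells was sequenced in 2 EV and 2 TET1-CD libraries. The authors deposited, per transcript and library, expected (estimated) counts of fragments and FPKM values, with hg19 (GRCh37) coordinates. The submitters' processing notes name cutadapt 1.9.1, HISAT2 2.0.1, HTSeq 0.6.1 and DESeq2; their settings and the handling of strand are not given in the sources used here. The deposited expected counts were summed per gene and rounded, and FPKM values were summed per gene for levels. The log2 fold changes came from edgeR 4.0.16 (glmQLFit, glmQLFTest, TMM, filterByExpr, no block) in R 4.3.3, with Benjamini-Hochberg adjustment over all 14573 genes tested. Each standard error is the log2 fold change divided by the root of its quasi-likelihood F. The script was tested on simulated data with 200 genes changed.

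Totals were 17442143 to 20295266 fragments, and the common dispersion was 0.00318. Alternatives were DESeq2 1.42.0, limma-voom (limma 3.58.1), RLE scaling, scaling by library size alone, all genes without a filter, genes with 10 counts or more in each of the 4 libraries, the replicate number as a block, limma-trend on log2(FPKM + 1) and fits without one library. The replicate numbers are names only, since nothing states that they mark a shared culture. Named were the called members, the 2 tested members of each role with the highest FPKM, and up to 2 called genes per list with the smallest p; further members with no call are given by their values. The members, roles and lists were chosen with earlier results of these data known. Promoter windows are RefSeq's, and exon overlaps are from GENCODE release 44 mapped to GRCh37. Of the lists, SEPT2, SEPT7, SEPT9 and PECAM1 were not used here.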

Additional observations from a re-analysis of the deposited data

How the results depend on the processing

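With 2 libraries per group, single-gene spread is poorly known. DESeq2 called 5 members higher and 1 lower (5.85% of all genes in that fit), limma-trend on log2(FPKM + 1) 3 and 0 (10.7%), and edgeR without a filter 14 and 5 (14.3%). The DESeq2 and unfiltered fits kept all 25160 genes with any count, against 14573 in the main fit, so their shares of all genes are not like its share. Omitting one library at a time gave 1 to 17 higher and 0 to 8 lower. The shares of all genes in those fits are given with the counts in the results above. The fit with the replicate number as a block called 10 higher and 4 lower (22.2% of all genes in that fit). It shared 11 of the 13 calls of the main fit and lost BUB1B and KIF3B. Deviations of libraries numbered 1 correlated between groups at 0.00713 over all genes tested and at 0.0504 over those above the median level. These values do not settle whether same-numbered libraries share a culture, since counting noise also lowers them. The cause of these shifts was not tested. The other scalings and filters and limma-voom stayed within 1.5 times. The median of the members was 0.045 with all libraries and ran from 0.0 to 0.088 over the fits without one library. All medians moved by less than 1 SD, the pooled SD of the library medians within a group. That SD was 0.0558 for the members, and 0.0572 for the cell-division members, whose median was 0.056. It exceeds both medians, so even a fall to 0.0 stays within it, and this check cannot show that the medians held. The sign changed for BUB3 under library size alone (0.004) and on the FPKM scale (0.104), and for NDC80 without a filter (-0.001). Over the fits without one library, log2 fold changes ranged from -0.102 to 0.066 for KIF11, -0.013 to 0.048 for CENPB, -0.339 to 0.039 for CENPF, -0.233 to 0.021 for NUF2, -0.048 to 0.023 for BUB3, -0.071 to 0.023 for TPX2 and -0.084 to 0.086 for NDC80. No called member changed sign under any of the 12 alternatives.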
